A study of Mus musculus with 8 samples.

Results

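Isocitrate dehydrogenase genes were examined in 2 mouse pre-B cell lines, one of which gave no signal for Idh2. The members were all 60-base array probes annotated in the files as Idh1, Idh2, Idh3a, Idh3b or Idh3g. There was 1 probe for each of the 5 genes, out of 55681 probes that are not controls. The genes were chosen because Idh2 signal was already known to be absent from 70Z/3, so their differences between the lines are given as a description with no test.

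The groups were 70Z/3 with miR-125b, 70Z/3 with miR-Neg, '18-81' with miR-125b and '18-81' with miR-Neg. Each held 2 replicates, for 8 one-colour arrays from 2 independent experiments. The labels name 70Z/3 as a leukaemic pre-B lymphoblast line and '18-81' as a pre-B line transformed by Abelson murine leukaemia virus. Every group received a synthetic duplex, pre-miR-125b or the control miR-Neg, at 10 nM by lipid transfection, with fresh medium at 8 h and RNA collection at 48 h. The stated purpose was to find targets of miR-125b. An untransfected group was not analysed here, and a difference between the lines is a difference between 1 line and 1 other line.

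Isocitrate dehydrogenases turn isocitrate into 2-oxoglutarate. Idh1, in the cytosol and peroxisomes, and Idh2, in mitochondria, are separate enzymes that use NADP+ and yield NADPH. Idh3a, Idh3b and Idh3g encode the catalytic and the other subunits of a different, NAD+-dependent mitochondrial enzyme, which carries out this step in the tricarboxylic acid cycle. Pre-B cells are proliferating B-cell precursors, and NADPH serves biosynthesis and the control of oxidants in dividing cells.

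The probes lie at chr1:65206035-65206094 for Idh1, chr7:87239736-87239795 for Idh2, chr9:54451368-54451427 for Idh3a, chr2:130106776-130106835 for Idh3b and chrX:71024358-71024417 for Idh3g (mm9, per the files). The Idh3a probe is on the plus strand and the other 4 are on the minus strand. Whether a probe lies in an exon or a UTR was not looked up here, since the annotation used covers another build. The sequences below show what was read for the NADP+ enzyme that was measured in both lines and for a subunit of the NAD+ enzyme. The Idh1 sequence is given up to the stop codon in capitals (chr1:65206039-65206094), and the Idh3b probe is open in 1 frame throughout.
Idh1 probe: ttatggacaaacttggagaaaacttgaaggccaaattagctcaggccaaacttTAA
Idh3b probe: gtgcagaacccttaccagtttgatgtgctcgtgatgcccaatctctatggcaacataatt

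The Idh2 and Idh3a probes hold a stop codon in all 3 frames. Each gene is represented by 1 probe, so a transcript that lacks its 60 bases would not be seen.

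For the gene that was not detected in one line, the 250 bases before its start are shown (chr7:80115351-80115600, minus strand, RefSeq, GRCm38.p6), with GGGCGG and its reverse complement CCGCCC in capitals.
Idh2 upstream: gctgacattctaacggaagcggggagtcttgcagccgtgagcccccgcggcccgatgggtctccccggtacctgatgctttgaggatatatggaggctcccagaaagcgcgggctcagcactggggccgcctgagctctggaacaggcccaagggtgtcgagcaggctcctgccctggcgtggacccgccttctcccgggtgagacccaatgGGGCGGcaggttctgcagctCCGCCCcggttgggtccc

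This stretch held 17 CpG dinucleotides, and 23.5% of 32851 RefSeq promoters of the same length held at least as many. It had 2 matches to GGGCGG on either strand, a motif present in 32.7% of those promoters, and 1 match to CCAAT or its reverse complement, present in 33.8%. The 2 listed starts of Idh1 had 18 and 22 CpG dinucleotides, Idh3g had 24 and Idh3b had 11. The table has no entry for Idh3a. The arrays did not read promoters, so these are properties of the sequence alone.

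An array had 38.0 to 45.1% of its probes well above background, and no member spot was saturated or called an outlier. The array's 75th percentile of intensity was 701.5 and 504.0 in 70Z/3 with miR-125b, 512.8 and 337.7 in 70Z/3 with miR-Neg, 725.1 and 568.6 in '18-81' with miR-125b, and 709.5 and 575.3 in '18-81' with miR-Neg. It was thus lower with miR-Neg in both replicate pairs of 70Z/3. Levels below are log2 intensity minus this percentile, so that 0 is the percentile itself and 1 unit is a doubling. All 8 arrays shared 1 slide, the slide row followed the replicate number and the slide column followed the group, so the effects of column and group cannot be told apart. All 9 B-cell precursor markers, among them Cd79a, Cd79b, Pax5, Ebf1, Vpreb1, Igll1, Blnk and Cd24a, were above background on every array of both lines. Their summed level, in multiples of the percentile, was 687 to 1479 in 70Z/3 and 414 to 499 in '18-81'. Bright probes weigh most in such a sum, and the markers went both ways. At a limma adjusted p under 0.05, 4 were higher in 70Z/3, 3 were lower and 2 did not pass. That is 77.8% called, against 31.6% of all probes tested.

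Idh2 signal was very bright in '18-81' and was not measurable in 70Z/3. In 70Z/3 the probe had an intensity of 6.30 and 6.04 with miR-125b and of 16.8 and 6.95 with miR-Neg. It was well above background on none of those 4 arrays, on which the dimmest probes well above background had 15.6 to 30.6. In '18-81' the same probe had 62462 and 82421 with miR-125b and 54658 and 60729 with miR-Neg. The lines did not come near each other on any array, and the gap was present with either duplex.

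On the log2 scale Idh2 stood at −6.80 and −6.38 in 70Z/3 with miR-125b and at −4.93 and −5.60 in 70Z/3 with miR-Neg. It stood at 6.43 and 7.18 in '18-81' with miR-125b and at 6.27 and 6.72 in '18-81' with miR-Neg. Because the 70Z/3 values were at background, the difference is only a bound. With the floor described next, Idh2 was at least 2221-fold higher in '18-81' than in 70Z/3 (at least 2983-fold with miR-125b and at least 1654-fold with miR-Neg). For this bound the '18-81' mean was set against a floor on each 70Z/3 array, namely the dimmest measurable probe or the Idh2 reading, whichever was brighter. The floor is not a detection limit of the Idh2 probe itself. On 70Z/3 miR-Neg replicate 1 that probe read 16.8, above the dimmest measurable probe at 15.6, and was still not well above background. With another background correction (normexp, a model of signal plus noise), the bound was 9.21 on the log2 scale, against 11.12 here. The fold therefore holds for this floor and correction only. Bounds of other genes below were made in the same way.

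Absence in one line and presence in the other was uncommon among the probes measured. The tests covered 25315 probes, each measurable on both replicates of some group. Of these, 1020 were above background on no 70Z/3 array and on every '18-81' array, which is 4.03%. Nothing is read from this share for Idh2, which was chosen for it. Idh2 was the only one of the 5 members in that class. The median bound in the class was 6.31-fold, and the bound of Idh2 was the highest. Nothing is read from this rank either, since Idh2 was chosen on these values and probes bind with different strengths. The reverse pattern was found for 771 probes (3.05%) and for no member. All 5 members passed this filter, Idh2 through its '18-81' arrays alone.

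Idh1, the cytosolic and peroxisomal NADP+ enzyme, was 2.00-fold higher in 70Z/3. Its level was 0.71 and 0.43 in 70Z/3 with miR-125b and 0.44 and 0.11 in 70Z/3 with miR-Neg. It was −0.71 and −0.47 in '18-81' with miR-125b and −0.55 and −0.58 in '18-81' with miR-Neg. All 4 arrays of 70Z/3 were above all 4 of '18-81'. As RNA of whole cultures was read, more RNA per cell and more cells with the transcript cannot be told apart. The difference was 1.00 on the log2 scale over both duplexes, 1.16 with miR-125b and 0.84 with miR-Neg. The 4 pairs of arrays with the same duplex and replicate number differed by 0.69 to 1.42. In the order of group means, 70Z/3 with miR-125b came above 70Z/3 with miR-Neg, then '18-81' with miR-Neg and '18-81' with miR-125b. Neighbours of the same line overlapped in that order.

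**Figure D1:**
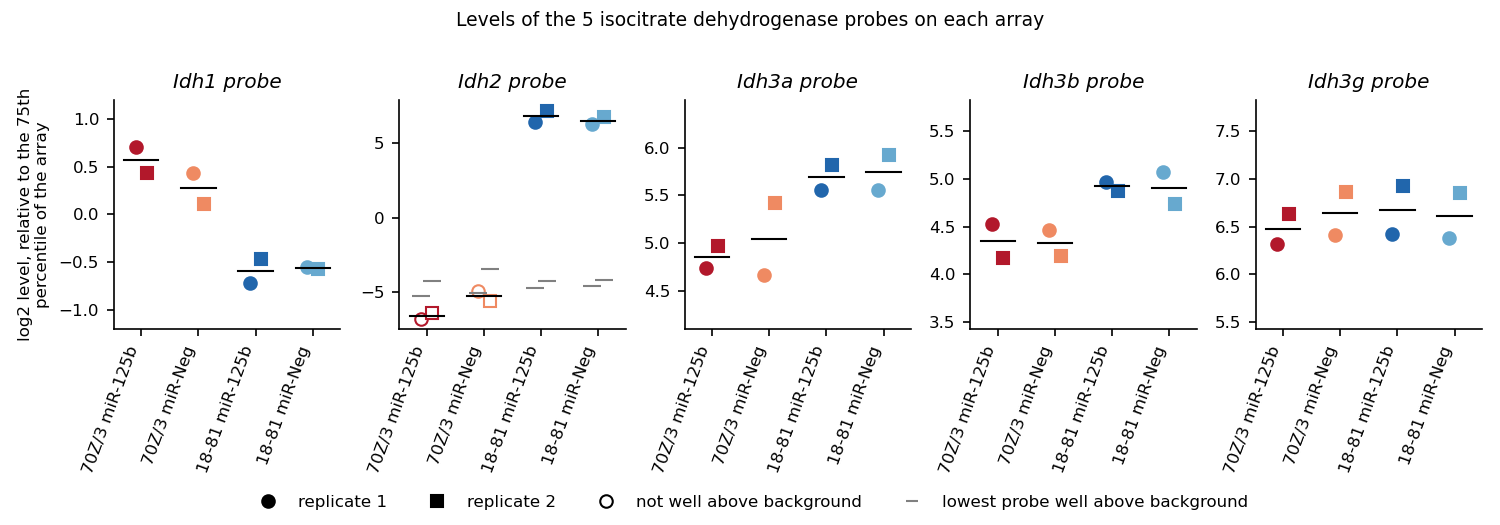
Log2 level of each probe, relative to the array's 75th percentile, in the 4 groups; circles and squares are replicates 1 and 2, black lines are group means of 2 arrays, open symbols were not well above background, and each panel has its own axis. The 4 Idh2 values of 70Z/3 lie near the grey marks of the dimmest measurable probes while those of '18-81' lie between 6.27 and 7.18, and Idh1 is the one probe with every 70Z/3 array above every '18-81' array.

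The 3 subunits of the NAD+ enzyme were measured in both lines, and none had its 70Z/3 arrays above its '18-81' arrays. Idh3a, the catalytic subunit, had 4.74 and 4.97 in 70Z/3 with miR-125b and 4.67 and 5.42 in 70Z/3 with miR-Neg. It had 5.56 and 5.82 in '18-81' with miR-125b and 5.56 and 5.92 in '18-81' with miR-Neg. The lines did not overlap, and the mean in 70Z/3 was 58.9% of that in '18-81', a log2 difference of −0.76. The highest 70Z/3 array, replicate 2 with miR-Neg, came close to the lowest of '18-81'. This array was also the dimmest of the 8.

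Idh3b, a non-catalytic subunit, had 4.53 and 4.18 in 70Z/3 with miR-125b and 4.46 and 4.19 in 70Z/3 with miR-Neg. It had 4.97 and 4.87 in '18-81' with miR-125b and 5.07 and 4.73 in '18-81' with miR-Neg. The 70Z/3 arrays were all below the '18-81' arrays, at 67.2% of the '18-81' level (log2 difference −0.57). With miR-125b alone it was −0.57, and with miR-Neg alone −0.58.

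Idh3g, the remaining subunit, did not separate the lines. It had 6.32 and 6.64 in 70Z/3 with miR-125b and 6.42 and 6.86 in 70Z/3 with miR-Neg. It had 6.42 and 6.93 in '18-81' with miR-125b and 6.38 and 6.85 in '18-81' with miR-Neg. The arrays of the lines overlapped and the mean in 70Z/3 was 94.3% of that in '18-81', a log2 difference of −0.09. Each neighbouring pair in the order of its 4 group means overlapped. For Idh3g the replicate number separated the arrays more than the line did. Idh3g and Idh3a were both higher in replicate 2 in all 4 groups, and Idh3b was higher in replicate 1 in all 4.

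Thus 1 of the 5 probes was higher in 70Z/3 with no overlap, against 17.9% of 25290 probes with all values, and 3 of the 5 (Idh2, Idh3a and Idh3b) were lower with no overlap, against 18.6%. Nothing is read from these counts, since the genes were chosen on this contrast. The scaling had little bearing on the 3 differences: over the 5 scalings and sources of values tried, Idh1 differed by 0.88 to 1.06, Idh3a by −0.80 to −0.70 and Idh3b by −0.60 to −0.49. The median of all probes tested differed by −0.02 between the lines. Probes bind with different strengths, so the level of Idh1 in 70Z/3 cannot be set against that of Idh2 in '18-81', and enzyme protein or activity was not measured.

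Some markers of other cell types also differed between the lines. The summed level of 4 erythroid markers was 2.15 to 6.80 in 70Z/3 and 0.154 to 0.230 in '18-81'. Hbb-b1 was above background on the 70Z/3 arrays only, and Klf1 was higher in 70Z/3 by 0.95 ± 0.23 (limma adjusted p = 0.0136), while Hba-a1 was above background on no array. The 4 stromal markers summed to 19.1 and 41.6 in 70Z/3 with miR-125b and to 0.832 and 1.72 in 70Z/3 with miR-Neg, against 0.167 to 0.219 in '18-81'. Their sum thus also differed between the duplexes within 70Z/3, where Sparc was higher with miR-125b by 4.64 on the log2 scale and did not pass (limma adjusted p = 0.182). Sparc was above background on all 8 arrays. No collagen of the list was above background on more than 1 array, and Col3a1 was on none, so the sum mostly follows Sparc. The 5 T-cell markers summed to 5.00 to 8.11 in 70Z/3 and 5.77 to 8.60 in '18-81', with Cd8a above background on no array. Cd3g was above background on 0 of 4 arrays of 70Z/3 and on 4 of 4 of '18-81', where it was at least 7.12-fold higher. No p-value is given for it, as its 70Z/3 readings were at background. The 5 myeloid markers summed to 7.51 to 13.4 in 70Z/3 and 6.18 to 12.7 in '18-81', with Cd14 on none. Lyz2 and Mpo were above background on 2 of 4 arrays of 70Z/3 and on none of '18-81'. Those 2 were the miR-125b arrays, so this detection followed the duplex within 70Z/3 as well as the line. Csf1r and Itgam were above background on all 8 arrays. Between miR-125b and miR-Neg in 70Z/3, Csf1r differed by −1.41 and Itgam by 0.64 on the log2 scale. Neither passed (limma adjusted p = 0.772 and 0.790). Itgam stood at 3.12 in 70Z/3 and 2.96 in '18-81'. The part of all these markers in the differences of the isocitrate dehydrogenase genes was not tested.

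The effect of miR-125b was independent of how the genes were chosen and was tested with limma, with p-values adjusted over all probes by the Benjamini-Hochberg method. The duplex releases miR-125b-5p (RefSeq, GRCm38.p6), shown here with its seed, bases 2 to 8, in capitals.
miR-125b-5p: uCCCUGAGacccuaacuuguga

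No isocitrate dehydrogenase probe passed the test of miR-125b against miR-Neg in either line. In 70Z/3, 0 of the 4 measurable members passed an adjusted p of 0.05, and 0 of 25315 probes did (0%). At an unadjusted p under 0.05 limma gave 1517 probes in 70Z/3 (5.99%) and 313 in '18-81' (1.24%). None of the 4 measurable members was among those of 70Z/3, and none of the 5 members was among those of '18-81'. The counts cover all probes fitted, Idh2 included. Its 70Z/3 readings were at background, so no p-value is read for Idh2 in that line. In '18-81', 0 of the 5 members passed, and again 0 of 25314 probes (0%).

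Idh1 was the member with the largest difference in 70Z/3. It was higher with miR-125b in both replicate pairs there, by 0.27 and 0.32 on the log2 scale. The fitted difference was 0.29 ± 0.28 (SE), with a 95% interval from −0.36 to 0.95 and a limma adjusted p of 0.792. In '18-81' the Idh1 difference was −0.02 ± 0.28, and its interval ran from −0.68 to 0.63. The effect on Idh1 in 70Z/3 minus that in '18-81' was 0.32 ± 0.40 (limma adjusted p = 0.944). The median of all probes was −0.12 in 70Z/3, where the array percentile also differed between the duplexes, and relative to it the Idh1 difference was 0.41. Sparc, a stromal marker, and the detection of the myeloid markers Lyz2 and Mpo moved with the duplex in 70Z/3, as given above. Csf1r, also a myeloid marker, went the other way (−1.41), so the myeloid markers did not move together. The part of these markers in the Idh1 difference was not tested. The Idh1 difference in 70Z/3 moved by over 1.5 times when 1 array of that line was left out, except where miR-125b replicate 2 was. Leaving out replicate 1 gave 0.16 where it was the miR-125b array and 0.46 where it was the miR-Neg array, and leaving out replicate 2 gave 0.43 and 0.13 in that order.

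Idh2 could be compared between the duplexes in '18-81' only. There it was higher with miR-125b in both pairs, by 0.16 and 0.46, and the fitted difference was 0.31 ± 0.39 (95% interval −0.59 to 1.21, limma adjusted p = 1.00). In 70Z/3 both duplexes left the probe at background, so no effect can be given. The error printed for '18-81' pools the spread within all 4 groups, so it rests in part on these 70Z/3 readings.

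The Idh3 subunits showed differences near 0 with wide intervals. In 70Z/3 Idh3a differed by −0.19 ± 0.34 (−0.98 to 0.60), with one pair at 0.07 and the other at −0.45. Idh3b differed by 0.02 ± 0.29 (−0.65 to 0.70), and Idh3g by −0.16 ± 0.34 (−0.94 to 0.62). In '18-81' the same probes differed by −0.05, 0.02 and 0.06. Limma adjusted p-values of the 4 members in 70Z/3 lay between 0.792 and 0.981. The sign for Idh3a and Idh3g in 70Z/3 turned with the scaling. Averaged over both lines, and for the difference of the effects between lines, 0 of 25314 probes passed. At an unadjusted p under 0.05 limma gave 682 (2.69%) and 843 (3.33%). None of the 4 members measured in both lines was among these. For Idh2 neither comparison is given, as its 70Z/3 readings were at background. The intervals above leave room for changes of over 1.5-fold in either direction for Idh3a in 70Z/3. Small effects were thus not detectable with 2 arrays per group.

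**Figure D2:**
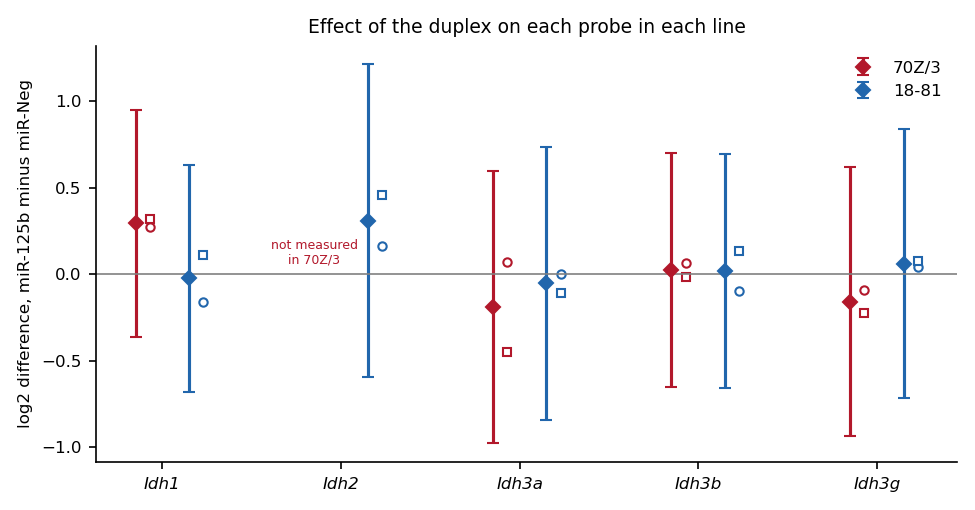
Log2 difference of each probe between miR-125b and miR-Neg, in 70Z/3 (red) and '18-81' (blue); diamonds are limma estimates with 95% intervals, and open circles and squares are replicate pairs 1 and 2. Every interval includes 0, and the highest estimates are Idh2 in '18-81' (0.31) and Idh1 in 70Z/3 (0.29).

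The genes around isocitrate and 2-oxoglutarate were then compared between the lines over both duplexes, where limma called 8007 of 25314 probes (31.6%), 4057 of them higher in 70Z/3 (16%) and 3950 lower (15.6%). The lists were written from general knowledge and describe the setting of the 5 genes. With this share of all probes called, a list with about that share called is at the background.

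Of the genes of the tricarboxylic acid cycle around the enzyme, 3 passed the test between the lines, a count that moved with the setting. All 19 of its listed genes were above background on every array. Of these, 1 was higher in 70Z/3, 2 were lower and 16 did not pass (15.8% called, median log2 difference −0.19, against −0.02 for all probes). Sdhc, a membrane anchor of succinate dehydrogenase, was higher by 1.09 ± 0.28 (limma adjusted p = 0.0198), and its second probe by 0.91 (0.0156). Pdhb, a subunit of pyruvate dehydrogenase, was lower, at −1.05 ± 0.27 (0.0199), although its other probe had −0.49 (0.188). Dlst, a component of the 2-oxoglutarate dehydrogenase complex that uses the product of isocitrate dehydrogenase, was lower, at −0.74 ± 0.23 (0.0417). These calls held in 12, 11 and 9 of 16 alternatives. The count of 3 became 6 with the replicate number as a block, where 11972 of all probes were called between the lines, against 8007. It became 0 with miR-Neg alone, where 5409 probes were called, and 0 with miR-125b alone, where 5353 were. Nothing is read from the size of this count.

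Genes listed under other sources of NADPH gave calls in both directions. Which cofactor an enzyme of this list used in these cells was not measured. Of 15 listed genes 11 were tested, and 2 were higher in 70Z/3, 2 were lower and 7 did not pass (36.4%, median −0.02). Me1, the cytosolic NADP+ malic enzyme, was not tested, and neither were Me3, Aldh1l1 and Aldh1l2, because they were not above background on both arrays of any group. Mthfd2, a mitochondrial folate-cycle dehydrogenase, was 3.31-fold higher in 70Z/3 (log2 1.73 ± 0.20, limma adjusted p = 0.000237). Its relative Mthfd2l showed the opposite. It was above background on no 70Z/3 array and on all 4 of '18-81', where it was at least 78.5-fold higher. Its call is in the count, but it rests on 70Z/3 readings at background, so its p-value is not given. H6pd, a hexose-6-phosphate dehydrogenase of the endoplasmic reticulum, was higher in 70Z/3 by 1.29 ± 0.33 (0.0172). Me2, a mitochondrial malic enzyme that works mainly with NAD+, was lower, at −0.87 ± 0.18 (0.00759). The pentose phosphate enzymes G6pdx and Pgd did not pass.

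The enzymes and carriers that handle citrate and 2-oxoglutarate had 15 of 16 genes tested, with 4 higher in 70Z/3, 2 lower and 9 not passing (40%, median −0.04). Adhfe1 was not tested. Gls2, a glutaminase that feeds glutamate to this pathway, was above background on all 4 70Z/3 arrays and on none of '18-81'. It was at least 72.6-fold higher in 70Z/3. Its call is in the count, but it rests on '18-81' readings at background, so its p-value is not given. D2hgdh, which oxidises D-2-hydroxyglutarate to 2-oxoglutarate, was higher by 1.41 ± 0.19 (limma adjusted p = 0.00061), and its other probes by 1.67 and 1.10. Slc25a10, the mitochondrial dicarboxylate carrier, was higher by 1.43 ± 0.41 (0.0285), and Aco1, the cytosolic aconitase that forms isocitrate, by 0.68 ± 0.22 (0.0459). The call for Slc25a10 held in 11 of 16 alternatives and that for Aco1 in 4. Lower were the mitochondrial aminotransferases Got2 (−1.07 ± 0.20, 0.00364) and Gpt2 (−0.91 ± 0.24, 0.0222), which also make 2-oxoglutarate or use it. The call for Gpt2 held in 10 of 16 alternatives. No gene of the 3 lists was called between miR-125b and miR-Neg in either line.

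**Figure D3:**
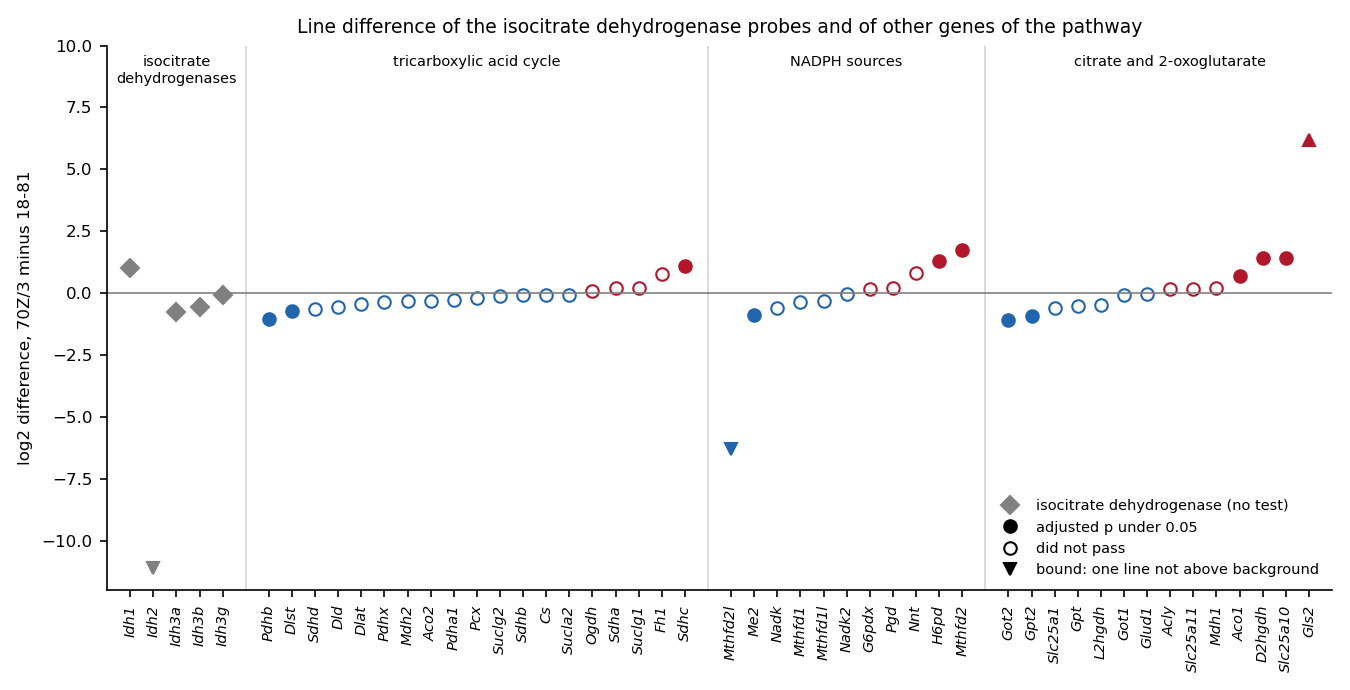
Log2 difference, 70Z/3 minus '18-81', of the 5 isocitrate dehydrogenase probes (grey, no test) and of tested genes of 3 pathway lists, each ordered by difference; filled symbols had a limma adjusted p under 0.05, red is higher and blue lower in 70Z/3, and triangles are bounds where one line was not above background. Idh2, Mthfd2l and Gls2 are the 3 bounds, and most other genes lie within about 1 unit of 0.

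Genes with a pattern like that of Idh2 over the 8 arrays were named by Pearson r with the Idh2 probe, among 25289 probes, as a description. They were Cish (r = 0.9995), an inhibitor of cytokine receptor signalling induced by STAT5, and Celsr1 (0.9990), a cadherin of planar cell polarity. The others were Nucb2 (0.9987), a calcium-binding protein, Camk1d (0.9985), a calmodulin-dependent kinase, and B4galt2 (0.9981), a galactosyltransferase. Each was above background on 0 of 4 arrays of 70Z/3 and on 4 of 4 of '18-81'. Cish ranged from −6.56 to −5.19 in 70Z/3 and from 6.09 to 6.83 in '18-81'. As the arrays form 2 clusters, the lines, r mostly states the gap between them, and 416 probes had an r above 0.99. The order among such probes rests in part on 70Z/3 values that were not above background, so it does not set these 5 apart from the other probes with an r above 0.99.

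Genes beside Idh2 on the chromosome included measurable ones in 70Z/3. Within 200 kb of the Idh2 probe on either side (mm9) the array held 16 other probes. Of these, 9 were above background on every 70Z/3 array, and 7 were above background on no array of either line. None of the 9 tested neighbours was present in '18-81' and absent from 70Z/3, a class that held 4.03% of all probes tested, so nothing is read from this count. The nearest, Zfp710 (2.2 kb away), which encodes a zinc finger protein, was higher in 70Z/3, at 3.60 to 3.86 against 1.42 to 2.21 in '18-81' (difference 1.90 ± 0.27, limma adjusted p = 0.000889). Cib1, a calcium- and integrin-binding protein 132.3 kb away, was lower, at 4.88 to 5.95 in 70Z/3 against 6.24 to 6.80 in '18-81' (−1.17 ± 0.24, 0.00612). For Gdpgp1, 144.5 kb away, 1 probe was lower, at −1.17 to −0.63 in 70Z/3 against −0.03 to 0.66 in '18-81' (−1.23 ± 0.25, 0.00667), while its other probe overlapped between the lines (0.12).

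**Figure D4:**
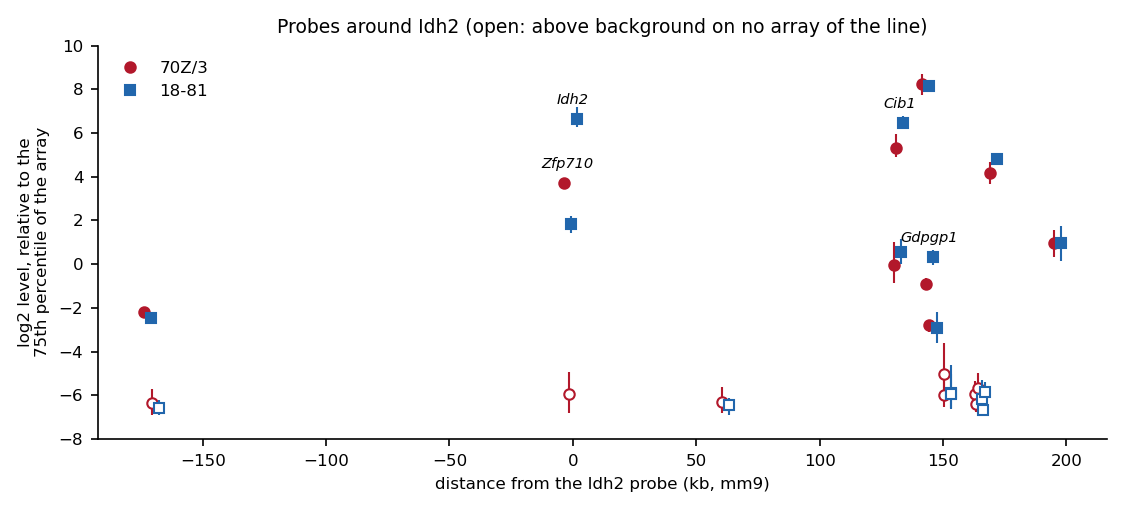
Log2 level, relative to the array's 75th percentile, of the probes within 200 kb of the Idh2 probe, by distance in kb; red circles are 70Z/3 and blue squares '18-81' (means of 4 arrays, vertical lines from lowest to highest, shifted slightly sideways), and open symbols were above background on no array of the line. Idh2 is the one probe that is filled in '18-81' and open in 70Z/3.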

How the data were processed

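Total RNA (0.2 µg, RNA integrity number 9, per the labels) was labelled with Cy3, and 8 arrays on 1 slide were scanned. The intensity values in the deposited scanner files were background-subtracted and spatially detrended by the authors with Agilent Feature Extraction 10.7.3.1, per the file headers. The deposited series table holds intensity values of the same arrays, on a linear scale and not centred by gene, normalized between arrays in a way not given in the sources used here. All of its columns have the same maximum, 650812.1375, and medians run from 14.64 to 14.71. Set against the scanner values on the log2 scale, r was 0.9974 to 1.

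Of 62976 spots per array, 59305 were not controls and gave 55681 probes. Outlier spots were dropped and replicate spots averaged. Each value is the log2 processed intensity less the 75th percentile of its array. RefSeq's GRCm38.p6 gene table named 26525 probes through an accession, 3786 through a symbol and 716 through an older symbol. The remaining 24654 are under the name in the file.

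The fit used limma 3.58.1 (R 4.3.3) with 4 group means over 8 arrays, for the 25315 probes that were well above background on both replicates of any group (25314 where a probe lacked a value in '18-81'). Moderation had 3.91 prior degrees of freedom and a prior standard deviation of 0.363. The script was tested on simulated data. A listed gene was read from its brightest tested probe, and up to 4 called genes per direction with the largest difference were named. The 5 gene symbols most like Idh2 and the neighbours whose lines did not overlap were also named.

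Some listed genes are not reported here, and counts include them. The members, lists and rules were chosen with earlier results of these data known. Same-numbered replicates deviated together (r of 0.38 to 0.64 over 6 pairs of groups), and 2 independent experiments are named in the design text, so the numbers were taken to mark pairs. The printed errors and p-values come from the fit without a block, and the blocked fit is an alternative. p-values cover the spread between these arrays only, and 2 arrays per group limit the precision. Alternatives were normexp (offset 50) with the percentile, quantile normalization, the percentile over probes detected on all arrays, the series table, no filter, an intensity trend, a replicate block, and leaving out each array. Probe strength differs, so no member's level was set against that of another member. The bounds do use a floor from other probes, and the marker sums add over probes.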

Additional observations from a re-analysis of the deposited data

How the results depend on the processing

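No isocitrate dehydrogenase probe was called between miR-125b and miR-Neg under any of 16 alternatives, and Idh1 (0.84 to 1.16), Idh3a (−0.95 to −0.58) and Idh3b (−0.66 to −0.49) kept their direction between the lines in all 18. The log2 bound for Idh2 was 9.21 to 11.54. Near-zero miR-125b differences changed sign. In 70Z/3, quantile normalization gave 0.056 for Idh3a and 0.17 for Idh3g, the series table gave 0.079 and 0.21, and the percentile over detected probes gave 0.020 for Idh3g. In '18-81', Idh3b was −0.0017 with normexp, −0.015 with quantile and −0.013 with the series table. The average over lines for Idh3g was 0.11 with quantile, 0.039 with detected probes and 0.13 with the series table. The difference of effects was 0.17, 0.044 and 0.21 for Idh3a in the same order, and 0.12 with quantile and 0.17 with the series table for Idh3g. The median of all probes in 70Z/3 was −0.01 with quantile, 0.06 with detected probes and 0.00 with the series table, against −0.12. The cause was not tested.

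Without 1 array at a time, differences ran as follows. In 70Z/3 they were 0.13 to 0.46 for Idh1, −0.57 to 0.19 for Idh3a, −0.15 to 0.20 for Idh3b and −0.38 to 0.062 for Idh3g. In '18-81' they were −0.15 to 0.10 for Idh1, −0.066 to 0.68 for Idh2, −0.24 to 0.13 for Idh3a, −0.15 to 0.19 for Idh3b and −0.19 to 0.31 for Idh3g. Averages ran from −0.31 to 0.066 for Idh3a, −0.067 to 0.11 for Idh3b and −0.18 to 0.076 for Idh3g. Differences of effects ran from −0.51 to 0.24, −0.17 to 0.18 and −0.47 to 0.033 for the same genes. For Idh1 the average ran from 0.053 to 0.22 and the difference of effects from 0.16 to 0.48, and with the percentile over detected probes Idh1 in 70Z/3 was 0.47. Its limma adjusted p there was 0.442 with the replicate block and 0.382 with the block within lines. A group left with 1 array was assumed to vary like the others.

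Probes called between miR-125b and miR-Neg, 0 in each comparison, were 1 in 70Z/3 with normexp and 1 with the replicate block within each line (Sparc both times, named after its values were seen), and 2 in '18-81' with quantile and 2 with the series table. Without 1 array they were 0 to 3 in 70Z/3 (3 without miR-Neg replicate 2), 0 to 13 in '18-81' (13 without its miR-125b replicate 2, 5 without replicate 1, 1 without miR-Neg replicate 2), 0 to 6 on average and 0 to 6 for the difference (both 6 without '18-81' miR-125b replicate 2). Of 3 tricarboxylic acid cycle calls there were 6 with quantile, 6 with the replicate block, 6 with the block within lines, 7 with the series table, 0 under miR-Neg alone and 0 under miR-125b alone, and 0 to 3 without 1 array, with 0 without 70Z/3 miR-125b replicate 2 and 1 without 70Z/3 miR-125b replicate 1, '18-81' miR-125b replicate 2 or either '18-81' miR-Neg array. Citrate and 2-oxoglutarate calls, 6, were 3 under miR-125b alone and 3 to 5 without 1 array (3 without 70Z/3 miR-125b replicate 1 or '18-81' miR-Neg replicate 2). NADPH calls were 3 to 6. The replicate block changed no other call count by over 1.5 times (11972 probes between the lines against 8007).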
